A study of Mus musculus with 12 samples.

Results

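The nuclear genes of oxidative phosphorylation were followed in spermatocytes of wild-type and Zfp541-knockout mice. Members were the protein-coding genes of the deposited gene annotation, mitochondrial chromosome left out, whose symbol names a subunit or a complex I assembly factor of the respiratory chain or a subunit of ATP synthase (Nduf, Sdh, Uqcr, Cox4 to Cox8 and Atp5 symbols). They were 94 genes of 55450 in the count tables, with 93 symbols, since Atp5o had 2 identifiers. By symbol, 36 were subunits of complex I, 8 were complex I assembly factors, 4 belonged to complex II, 8 to complex III, 20 to complex IV and 18 to complex V. Ndufa4 and Ndufa4l2 were counted with complex IV, to which the Ndufa4 protein belongs. Of the 94, 90 passed the filter on low counts, and Cox4i2, Cox6a2, Cox8b and the second Atp5o identifier, which had 0 molecules counted, did not.

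The respiratory chain passes electrons from NADH and succinate through complexes I to IV to oxygen and pumps protons out of the mitochondrial matrix, and complex V, the ATP synthase, uses the returning protons to make ATP. Most of its subunits are encoded in the nucleus, and the mitochondrial genome encodes the rest. Male germ cells carry copies of several complex IV subunits that are made mainly in the testis (Cox6b2, Cox7b2 and Cox8c) beside the widely expressed forms (Cox6b1, Cox7b and Cox8a), and during pachytene the X chromosome is silenced in the sex body.

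The study held 12 libraries of single testis germ cells from C57BL/6 mice, 3 in each of 4 groups: wild type (WT) and Zfp541-KO, whose genotype is labelled Zfp541-/-, each 260 h (labelled early pachytene) and 360 h (late pachytene) after retinoic acid. All mice of all groups had been fed WIN 18,446, an inhibitor of retinoic acid synthesis, for 7 days from 2 dpp and then injected with retinoic acid, so that every group is a chemically synchronised first wave of spermatogenesis and not an untreated testis. The labels do not give the kind of Zfp541 allele or the number of animals. Nothing in them says whether a group's 3 libraries are from different mice, and the p-values therefore reflect only how libraries vary, which may be technical. Cells had been picked by hand, and counts were of unique molecular identifiers (UMIs), which mark single cDNA molecules captured at their 3′ ends.

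Of 1152 cell barcodes, 929 were kept cells of the authors, 50 to 94 per library, and the libraries held 3601518 to 27202665 gene UMIs. Among kept cells, 13 barcode sequences occurred in all 12 libraries. Germ cell markers (Ddx4 and Dazl, summed) were at 858 to 2310 CPM in every library, where CPM is the UMIs of a gene scaled to a fixed library total. Of 23 markers of Sertoli, Leydig, peritubular, endothelial, macrophage and blood cells, Insl3 was at 0 in 10 libraries and C1qb in 5, and the summed Leydig markers reached 104 CPM in WT at 260 h against at most 24.8 in the other groups. The summed peritubular and endothelial markers reached 88.4 CPM in WT and 93.5 in KO at 260 h, and 43.4 and 60.5 at 360 h. The summed Sertoli markers were at 159 to 258 CPM at 260 h in both genotypes. At 360 h they were at 28.3 to 65.1 in WT and 42.1 to 166 in KO. At 260 h most of the sum was Ctsl, at 110 to 221 CPM, while Amh was at no more than 0.82 in any library. The macrophage and blood markers reached 494 in WT and 185 in KO at 260 h, and 318 and 171 at 360 h. In the highest WT libraries most was haemoglobin Hbb-bs and Hba-a1 (298 and 159 at 260 h, 182 and 132 at 360 h). C1qa, C1qb, Cd68 and Ptprc were at no more than 19.9 CPM in any library. Zfp541 itself was at 38.1, 84.1 and 129 CPM in WT and 123, 99.1 and 75.8 in KO at 260 h, and at 200, 178 and 170 in WT and 156, 130 and 151 in KO at 360 h. It was not called between genotypes at either time. Since neither the allele nor the position of the counted tags relative to it is given, these counts do not check the genotype labels.

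Libraries stood apart within their groups. WT 260 h replicates 1 and 2 had their early pachytene cells, all but 1, in the authors' cluster 2, while those of replicate 3 lay in cluster 3 together with those of all 3 KO libraries of that time. Cluster 2 had the macrophage gene C1qb and the Leydig gene Cyp11a1 among its 10 leading genes, at 11.9-fold and 7.1-fold over the other clusters. Its first gene was at 21.5-fold. Clusters 2 to 5 all lacked a marker of their own class there. The summed Leydig markers of WT 260 h replicates 1 and 2 were at 114 and 69.4 CPM within early pachytene cells. Within their pre-meiotic cells these markers were at 123 and 55.7. At 360 h the late pachytene cells of WT were in cluster 5 and those of KO in cluster 4, so cluster and genotype cannot be told apart there. KO 360 h replicate 1 had 0 pre-meiotic cells, and replicates 2 and 3 had 9 and 10. WT 360 h replicate 3, the deepest library, was at least 2-fold above both others of its group for 10 of 87 members with a mean of at least 20 CPM, beside 543 of 7526 genes of that level. WT 260 h replicate 1 had the largest share of genes apart by that measure among the 12 libraries, with 451 higher and 653 lower (14.7%), among them 5 members higher (Ndufa4, Cox6b1, Atp5g2, Ndufb11 and Cox7b) and 1 lower (Ndufb2). Of its 52 cells 24 were in cluster 1, against 11 of 68 and 17 of 89 in replicates 2 and 3. This comparison was chosen after values were seen.

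Promoter sequence is shown for 2 testis isoforms of complex IV, for the X-linked partner of one of them, and for Ndufaf4, whose KO libraries lay above all WT libraries at both times. Of the 93 symbols, 76 matched the RefSeq promoter table (GRCm38.p6), which gave 81 windows of the 250 bases before a start. The letters of a nuclear respiratory factor 1 site (GCGC, A, any base, then GCGC, on either strand), a motif known from respiratory genes, stood in 15 of 81 member windows (18.5%) and in 3.74% of all 32851 windows. The CRE letters TGACGTCA stood in 4.94% against 1.55%, the MYB letters TAACGG in 4.94% against 2.18%, the ETS letters ACTTCCGG in 3.7% against 2.88% and the YY1 letters (AAGAT, then GGCGG) in 1.23% against 0.301%. No motif lies within another, and a match is a description of letters, not a site. The window of Uqcrfs1, a member described below, held the CRE letters. Capitals mark the nuclear respiratory factor 1 letters, and the windows of Cox6b2, Cox7b2 and Cox7b held none of the 5 motifs. Each window is written 5′ to 3′ along its gene, for Cox6b2 chr7:4753095-4753344 (minus strand), for Cox7b2 chr5:71548206-71548455 (minus), for Cox7b chrX:106015450-106015699 (plus) and for Ndufaf4 chr4:24897833-24898082 (plus).
Cox6b2: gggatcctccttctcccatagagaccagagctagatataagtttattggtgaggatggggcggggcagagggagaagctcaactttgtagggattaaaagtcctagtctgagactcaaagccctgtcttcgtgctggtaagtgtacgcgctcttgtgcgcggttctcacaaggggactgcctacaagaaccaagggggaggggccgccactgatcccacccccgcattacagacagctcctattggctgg
Cox7b2: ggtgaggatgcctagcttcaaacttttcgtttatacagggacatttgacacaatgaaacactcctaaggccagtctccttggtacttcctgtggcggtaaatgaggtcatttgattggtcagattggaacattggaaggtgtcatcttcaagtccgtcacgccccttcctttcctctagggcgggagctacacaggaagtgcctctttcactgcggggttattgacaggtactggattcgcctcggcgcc
Cox7b: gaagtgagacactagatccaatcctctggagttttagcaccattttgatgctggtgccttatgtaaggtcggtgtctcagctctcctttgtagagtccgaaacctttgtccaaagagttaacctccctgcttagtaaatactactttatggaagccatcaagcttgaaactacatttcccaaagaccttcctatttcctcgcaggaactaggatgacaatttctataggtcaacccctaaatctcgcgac
Ndufaf4: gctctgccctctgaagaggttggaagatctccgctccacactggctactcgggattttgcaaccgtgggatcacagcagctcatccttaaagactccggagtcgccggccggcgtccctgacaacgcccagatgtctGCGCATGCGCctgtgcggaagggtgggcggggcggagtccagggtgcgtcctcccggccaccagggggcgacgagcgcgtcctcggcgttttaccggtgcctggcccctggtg

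Members took 3.70% of the gene UMIs of all kept cells and 2.95% to 4.24% per library, and a median cell had UMIs of 86 members (78 to 92). Levels below are CPM scaled by TMM (trimmed mean of M values, a factor that equalises libraries) unless said otherwise. Since counts came from 3′ ends they were not divided by length, and levels of different genes are in molecules counted. The 2 members with the highest mean level in each complex were Ndufc1 and Ndufa2 in complex I, Sdhb and Sdhc in complex II, Uqcrq and Uqcr11 in complex III, Cox8c and Cox6c in complex IV and Atp5e and Atp5k in complex V. Ndufc1, an accessory subunit, was at 854 ± 105 CPM in WT and 849 ± 240 in KO at 260 h, and at 1370 ± 257 and 1340 ± 231 at 360 h (SD, n = 3). Atp5e, the epsilon subunit of the synthase, was at 1140 ± 196 and 1190 ± 299, then 1350 ± 334 and 1470 ± 112. In summed libraries, fewer cells of a type and less RNA per cell cannot be told apart.

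The testis isoforms of complex IV made up most of each isoform pair in pachytene cells and the smaller part of some pairs in pre-meiotic cells. Cluster levels are a description with no test, as clusters were made from the cells' own genes, and they are CPM without TMM in libraries with at least 10 cells of the cluster. In cluster 1, the pre-meiotic cluster, Cox6b2 ran from 169 to 891 CPM (median 448, 7 libraries) and Cox6b1 from 370 to 794 (median 509). In cluster 5, the WT late pachytene cluster, Cox6b2 was at 1640, 1640 and 1060 CPM and Cox6b1 at 104, 82.5 and 86.5. The Cox6b2 share of the pair's molecules was thus 28.3% to 66.7% in cluster 1 and 92.4% to 95.2% in cluster 5. The KO late pachytene cluster 4 was at 83.2% to 89.3%, within the 81.9% to 92.0% of the early pachytene clusters 2 and 3. Cox6b proteins sit on the intermembrane side of the enzyme, at the contact of its monomers.

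The other two pairs also had their lowest testis share in cluster 1. Cox7b2 took 68.6% to 90.8% of its pair in cluster 1 and at least 97.4% in each library of clusters 2 to 5. Cox8c took 34.0% to 93.7% of its pair in cluster 1, where WT 260 h replicate 2 (91.8%) and KO 360 h replicate 3 (93.7%) were the high libraries, and 92.5% to 99.9% in clusters 2 to 5. Together the 3 testis isoforms held 0.225% to 0.538% of gene UMIs per library and their 3 partners 0.00933% to 0.0717%. In cluster 1 of the 3 KO libraries at 260 h the values were 0.131%, 0.103% and 0.0618% for the testis isoforms and 0.127%, 0.159% and 0.0876% for the partners.

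Between times, Cox8c rose and Cox8a fell in both genotypes. Cox8c was at 1380, 1930 and 1010 CPM in WT at 260 h and 2810, 3410 and 1840 at 360 h. In KO it was at 929, 913 and 583, then 2700, 2140 and 2090. The KO libraries did not overlap between times, and in WT the lowest late library was below the highest early one. Cox8c rose in KO by 1.51 ± 0.30 log2 (SE; edgeR quasi-likelihood test, adjusted p = 0.00251) and in WT by 0.90 ± 0.30 (adjusted p = 0.0258), and the WT call was lost without WT 260 h replicate 1 or 3 (adjusted p = 0.0751 and 0.14) and without WT 360 h replicate 1 or 2 (0.0704 and 0.0661). Cox7b2, at 955, 1200 and 969 CPM in WT at 260 h and 1500, 1640 and 1060 at 360 h, did not pass in either genotype (0.43 ± 0.25 in WT and 0.65 ± 0.25 in KO, adjusted p = 0.186 and 0.0727).

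The partners were low in late libraries. Cox8a was at 108, 30.6 and 119 CPM in WT at 260 h and 11.8, 5.28 and 37 at 360 h. It was at 220, 295 and 116 in KO at 260 h and 8.95, 12 and 21.4 at 360 h. The KO times did not overlap and the WT times did. Cox8a fell by 3.89 ± 0.73 in KO (adjusted p = 0.00248) and by 2.24 ± 0.68 in WT (adjusted p = 0.0193), where the call was lost in 4 of 6 fits that left out 1 library: those without WT 260 h replicate 1 or 3 (0.067 and 0.0877) and without WT 360 h replicate 1 or 2 (0.0848 and 0.0607). Without WT 360 h replicate 3 the change of Cox8a in WT was −3.31 (adjusted p = 0.00224). Cox6b1 was at 441, 179 and 164 CPM in WT at 260 h and 135, 121 and 105 at 360 h, with no overlap. It fell by 1.12 ± 0.38 in WT (adjusted p = 0.029). The call was lost without WT 260 h replicate 1 (−0.52, adjusted p = 0.259) and without WT 360 h replicate 1, 2 or 3 (0.0594, 0.0882 and 0.0849). In KO the change of Cox6b1 was −0.73 ± 0.38 (adjusted p = 0.178).

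**Figure D1:**
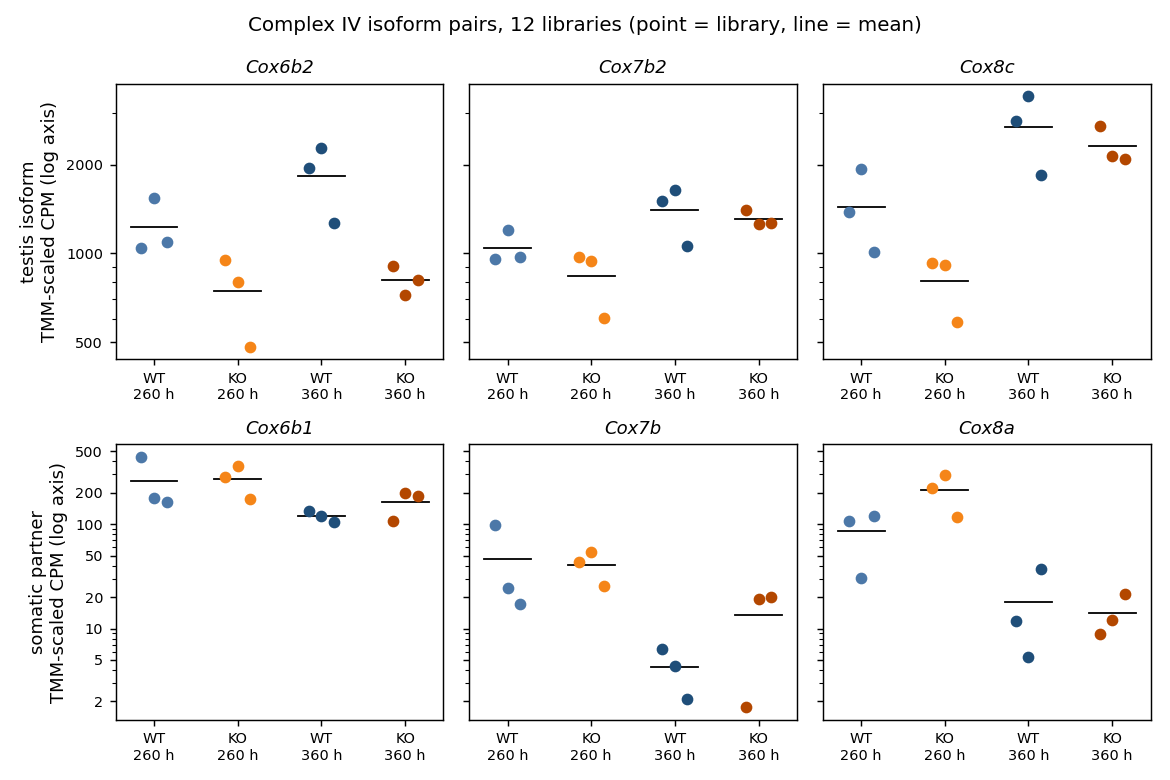
TMM-scaled CPM (log axis) of the testis isoforms Cox6b2, Cox7b2 and Cox8c (top) and their partners Cox6b1, Cox7b and Cox8a (bottom) in 4 groups of 3 libraries. Points are libraries and lines are means; in KO at 360 h, Cox6b2 lies between 721 and 908 CPM, below all 3 WT libraries, while Cox7b2 and Cox8c overlap with WT.

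Ratios within a library do not depend on scaling. The ratio of Cox6b2 to Cox6b1 molecules was 2.35, 8.58 and 6.63 in WT and 3.35, 2.21 and 2.77 in KO at 260 h. At 360 h it was 14.4, 18.8 and 12.1 in WT and 8.37, 3.61 and 4.35 in KO, with no overlap. The KO ratio at 360 h was 2.92-fold lower (exact permutation test of log2 ratios, two-sided, p = 0.1, the smallest 3 against 3 libraries can give; adjusted p = 0.182 over 20 tests of 5 pairs and 4 comparisons). The ratio of Cox8c to Cox8a was 12.8, 62.9 and 8.46 in WT and 4.23, 3.09 and 5.04 in KO at 260 h, with no overlap and a ratio 4.7-fold lower in KO, with the same p and adjusted p. At 360 h that ratio was 1.13-fold lower and the genotypes overlapped (p = 0.9 by the exact permutation test). No such test could pass 0.05. The Cox4i2 and Cox6a2 pairs were not used because these genes failed the filter, and Cox7a1, the heart and muscle form of its subunit, was at no more than 26.8 CPM in any library beside 465 to 1850 for Cox7a2.

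Between genotypes at 260 h no member was called. By edgeR 0 of 90 tested members passed an adjusted p under 0.05, and 0 did by DESeq2 and by limma-voom, beside 1.89% of all 20279 genes by edgeR (0.582% higher and 1.31% lower in KO). At an unadjusted p under 0.05 there were 5 of 90: Ndufaf4, Ndufs7, Cox6b2, Cox8c and Ndufb4. The share of all genes at that unadjusted limit is not given here, so this count is not read as a result. The median member was at 0.06 log2 (KO against WT) and the median gene at −0.01. Libraries of the genotypes did not overlap for 7 members (7.78%, against 14.6% of all genes): Ndufaf4 was higher in KO, and Cox6b2, Cox8c, Atp5s, Uqcrb, Sdha and Ndufb4 were lower. The lowest adjusted p of a member was that of Ndufaf4 (0.181), which was at 44.7, 34.3 and 42.9 CPM in WT and 88.9, 100 and 54.2 in KO. Within pre-meiotic cells at 260 h edgeR called 0 of 89 tested members beside 0.051% of genes (0.0255% in each direction), a fit that DESeq2 and limma-voom were not run on. There 11 members had an unadjusted p under 0.05, again without a share of all genes at that limit and not read as a result. A limit of 20 cells per library leaves 1 WT library (replicate 1) against 2 KO libraries. That fit assumes that the lone WT library varies like the other libraries, and its calls are not read. Leaving out 1 library at the limit of 10 cells gave 0 to 2 called members. In the early pachytene class, 1 member passed between genotypes (Ndufaf4, 1.16 ± 0.27, adjusted p = 0.0377) beside 3.17% of genes (1.98% higher, 1.2% lower). That count was 0 with a replicate block and 0 to 10 leaving out 1 library, and it is not read as a result, since cluster 2, with the leading genes given above, holds the class in 2 of 3 WT libraries.

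At 360 h, 7 of 90 members were called between genotypes, beside 22.5% of all genes, which is a larger share than the members'. Of these, 2 were higher in KO (8.93% of genes were) and 5 were lower (13.5%). The median member lay at −0.05 log2 and the median gene at 0.03. With library sizes set by the ERCC spike-ins, which were 3.10% to 11.9% of UMIs, 1 member was higher and 9 were lower, beside 18.4% of genes. The median gene then lay at −0.48 and the median member at −0.52. The count was 4 without KO replicate 3, 11 without KO replicate 1, and 11 without pre-meiotic cells. In those fits 11.8%, 18.8% and 24.1% of genes were called. With only the 6 libraries of that time it was 19 (13 higher, 6 lower), beside 32.5% of genes, again a larger share than the members'. Libraries of the 2 groups did not overlap for 29 members, 16 higher and 13 lower in KO (32.2%, against 44.2% of all genes).

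**Figure D2:**
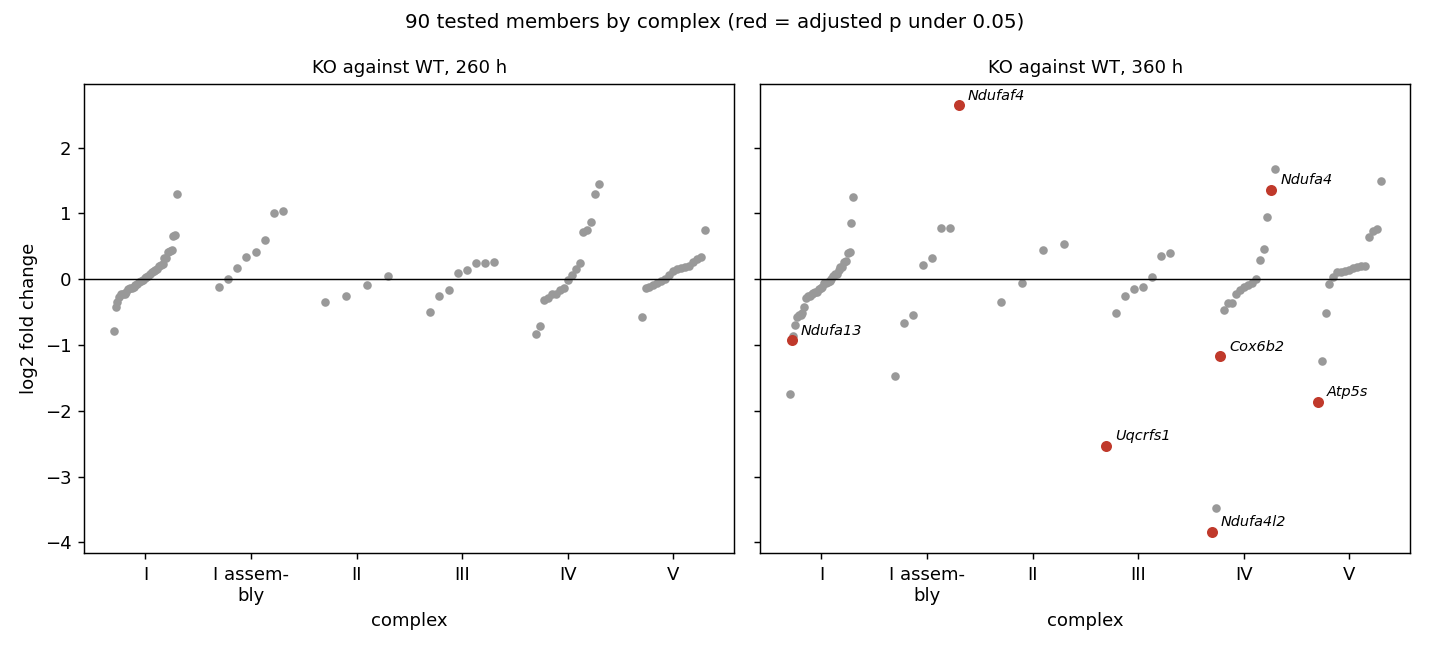
Log2 fold change of KO against WT for the 90 tested members at 260 h (left) and 360 h (right), by complex, 1 point per member; red points have an adjusted p under 0.05 in edgeR. No member is called at 260 h, and at 360 h the called members run from −3.84 for Ndufa4l2 to 2.65 for Ndufaf4 while most others lie near 0.

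In complex I, Ndufa13 was lower in KO at 360 h and the assembly factor Ndufaf4 was higher. Ndufa13, also known as GRIM-19, was at 510, 580 and 524 CPM in WT and 288, 283 and 277 in KO. It fell by 0.93 ± 0.28 log2 (adjusted p = 0.0243), and lost the call without WT replicate 1 (adjusted p = 0.056) or KO replicate 3 (0.125). An exon of Ndufa13 overlaps Tssk6 on the opposite strand, which was at 0.367 to 4.38 CPM in these 6 libraries. The sources used here do not give whether counting used strand, so reads of overlapping genes cannot be told apart. In all, 33 members have an exon that overlaps another gene, 29 of them on the opposite strand.

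Ndufaf4, which helps to assemble complex I, was at 7.33, 3.58 and 9.42 CPM in WT at 360 h and 45.3, 43.3 and 40.5 in KO. Every KO library was above every WT library. The difference was 2.65 ± 0.36 log2 (adjusted p = 9.74e-05), and 2.28 to 2.96 with any 1 library of that time left out, called each time. In WT, Ndufaf4 fell between 260 h and 360 h by 2.57 ± 0.36 (adjusted p = 7.31e-05). In KO the change was −0.92 ± 0.34 (adjusted p = 0.0594), and the genotype effects of the 2 times differed by 1.65 ± 0.48, which was not called (adjusted p = 0.0582).

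In complex III, Uqcrfs1 was the called member. It encodes the Rieske iron-sulfur protein, which takes electrons from ubiquinol. WT libraries at 360 h were at 258, 348 and 322 CPM and KO libraries at 38.7, 63.4 and 58.7. At 260 h they were at 56.5, 104 and 167 in WT and 145, 146 and 71 in KO. WT at 360 h lay above all other libraries, and KO at 360 h overlapped with the lowest WT library of 260 h. Uqcrfs1 fell by 2.53 ± 0.39 log2 in KO against WT (adjusted p = 0.00026). The other 7 complex III members were not called, and Uqcrc2, Uqcr10, Uqcrq and Uqcr11, among the named ones, differed by −0.26 to 0.35.

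The change of Uqcrfs1 with time went in opposite directions in the genotypes. It rose in WT by 1.50 ± 0.37 (adjusted p = 0.00514) and fell in KO by 1.17 ± 0.37 (adjusted p = 0.0323). The KO call was lost without KO 260 h replicate 1 or 2 (0.162 and 0.155) or KO 360 h replicate 1 or 3 (0.124 and 0.101). The genotype effect at 360 h differed from that at 260 h by −2.67 ± 0.53 (adjusted p = 0.00868). By that test 0 members were higher and 2 lower, Uqcrfs1 and Ndufa4l2, beside 5.08% of genes (2.3% higher, 2.78% lower). In 2 assembly factors of the same protein, Lyrm7, its chaperone, was at 38.5, 87.1 and 68.8 CPM in WT and 25.1, 22.3 and 16.7 in KO at 360 h, and Bcs1l, which inserts it into the complex, at 9.17, 5.94 and 6.24 and at 21.7, 29 and 31.6. Lyrm7 fell by 1.6 ± 0.45 in KO (adjusted p = 0.0187) and Bcs1l rose by 1.95 ± 0.38 (adjusted p = 0.00182).

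In complex IV, Ndufa4l2 and Ndufa4 moved apart. Ndufa4 is a subunit of the enzyme, and Ndufa4l2 is its paralog known from hypoxic cells. Ndufa4l2 was at 34.1, 72.9 and 56.9 CPM in WT at 360 h, and at 1.24 to 5.42 CPM in the 9 other libraries. The WT late libraries were thus clear of all others. In KO against WT at 360 h it fell by 3.84 ± 0.50 log2 (adjusted p = 7.15e-05), and lay between −4.24 and −3.65 with 1 library left out, called each time. It rose with time in WT by 4.59 ± 0.52 (adjusted p = 1.84e-05), and the genotype effect differed between times by −4.00 ± 0.69 (adjusted p = 0.00362), or −3.31 without KO 260 h replicate 1. An exon overlaps Shmt2 on the opposite strand, which was at 12.4 to 18.3 CPM in WT and 11.6 to 27.2 in KO at 360 h and was not called between them (adjusted p = 0.328).

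Ndufa4 was at 51.7, 55 and 54 CPM in WT at 360 h and 100, 153 and 159 in KO, with no overlap. It rose by 1.36 ± 0.37 log2 in KO (adjusted p = 0.0149). The call was lost without WT replicate 1 (0.0546), KO replicate 2 (0.0554) or KO replicate 3 (0.0685), and under spike-in scaling (0.85, adjusted p = 0.195). The ratio of Ndufa4l2 to Ndufa4 molecules was 0.66, 1.33 and 1.05 in WT at 360 h and 0.0546, 0.0198 and 0.0196 in KO, 35.2-fold lower (exact permutation p = 0.1, adjusted p = 0.182).

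Among the testis isoforms, Cox6b2 was the called one. It was at 1950, 2270 and 1270 CPM in WT at 360 h and 908, 721 and 814 in KO. It fell by 1.17 ± 0.29 log2 (adjusted p = 0.00969), and without KO replicate 3 the adjusted p was 0.0591. Cox7b2 and Cox8c differed by −0.09 ± 0.25 (adjusted p = 0.821) and −0.22 ± 0.30 (adjusted p = 0.636), and their groups overlapped. Of the other isoform genes, Cox4i1, Cox6a1, Cox7a1, Cox7a2 and Cox7a2l differed by −0.46 to 0.94 and none was called. Cox4i2 was at 0 to 2.27 CPM and Cox6a2 at 0 to 0.882, too low to compare.

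In complex V, Atp5s, named for the coupling factor B of the synthase, was at 87, 121 and 131 CPM in WT at 360 h and 31.3, 39.6 and 22.6 in KO. At 260 h it was at 40.7, 38.9 and 38.8 in WT and 34, 30.8 and 14.4 in KO. Every WT late library was above every other library. The difference in KO at 360 h was −1.86 ± 0.33 log2 (adjusted p = 0.000893), called with any 1 library left out. Atp5g1, Atp5g2 and Atp5g3 encode the same mature c subunit of the proton ring. Their differences were 0.77 ± 0.30 (adjusted p = 0.075), 1.49 ± 0.55 (adjusted p = 0.0642) and 0.04 ± 0.30 (adjusted p = 0.932). In complex II no member was called, and Sdhb, the iron-sulfur subunit, was at 303, 416 and 347 CPM in WT and 370, 327 and 328 in KO.

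**Figure D3:**
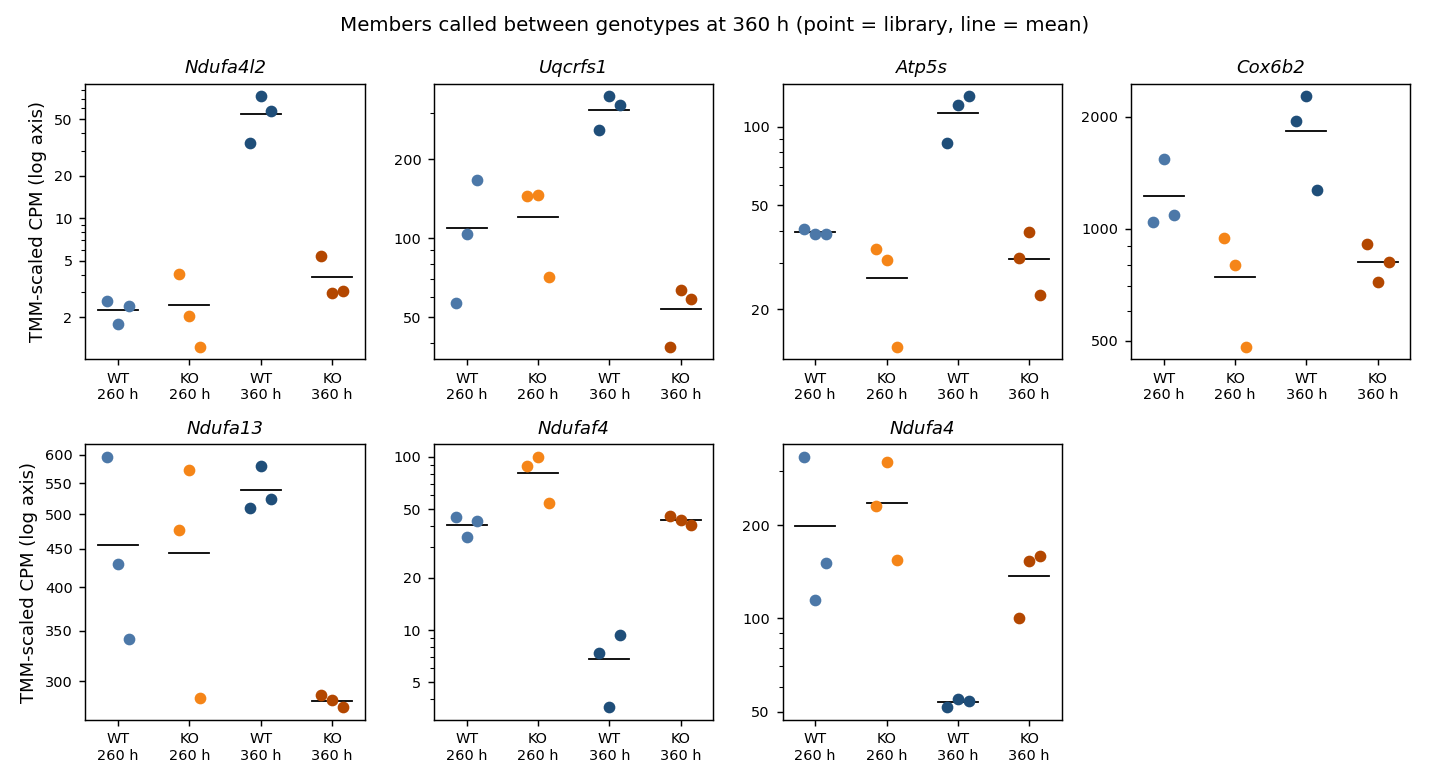
TMM-scaled CPM (log axis, own range in each panel) of the 7 members called between genotypes at 360 h, in 4 groups of 3 libraries; points are libraries and lines are means. For Ndufa4l2, Uqcrfs1 and Atp5s the 3 WT libraries at 360 h stand above the other 9, and for Ndufaf4 they stand below the other 9 at 3.58 to 9.42 CPM.

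Within the authors' late pachytene class, held by cluster 5 in WT and cluster 4 in KO, all 7 were again called. There, 21 of 90 members passed, 14 higher and 7 lower in KO, beside 34.9% of genes (15.5% higher and 19.4% lower). The count was 9 without KO replicate 2 and 11 without KO replicate 3. The cells are the same ones as in the sums above, so this is not independent of them. Ndufa4l2 differed by −3.74 ± 0.40 (adjusted p = 0.000243), Uqcrfs1 by −2.36 ± 0.24 (0.000194) and Ndufaf4 by 2.86 ± 0.38 (0.000654). Among the 14 calls that the sums over all cells did not give were the c subunit genes Atp5g1 (0.92 ± 0.17, adjusted p = 0.00334) and Atp5g2 (1.68 ± 0.43, adjusted p = 0.0162) and the complex II subunit Sdhc (0.72 ± 0.17, adjusted p = 0.0107). In these cells the 4 pachytene markers summed to 1230 to 1750 CPM in WT and 795 to 890 in KO, and the 4 meiotic markers to 1520 to 1680 and 3280 to 3990. Their part in the result was not tested.

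Over time and over all kept cells, more members were called higher than lower in both genotypes. In WT 19 of 90 were higher and 12 lower at 360 h than at 260 h, beside 20.9% and 18.9% of genes (39.9% in all), with a median member of 0.42 log2 and a median gene of −0.10. In KO 15 were higher and 9 lower, beside 13.3% and 10.2% of genes (23.5% in all), with medians of 0.33 and −0.15. Against these shares neither count of calls is a result about the members. Libraries of the 2 times did not overlap for 44.4% of members in WT, against 50.6% of all genes. In KO they did not overlap for 61.1% of members (38 higher, 17 lower), against 46% of all genes. Without pre-meiotic cells the balance turned, with 10 higher and 12 lower in WT and 7 higher and 9 lower in KO. In those fits 35.7% and 22.3% of genes were called. The median member lay at 0.30 and 0.23, and the median gene at −0.05 and −0.02. With spike-in scaling the splits were 35 higher and 5 lower in WT and 11 higher and 3 lower in KO. That scaling called 30.2% of genes in WT, a smaller share than the members', and 12.7% in KO. Under it the median gene lay at 0.33 in WT and 0.04 in KO, and the median member at 0.88 and 0.57. Summed spermatogonial markers were at 151 to 307 CPM in WT at 260 h and 35.7 to 102 at 360 h. The Sertoli markers in WT were at 159 to 248 and 28.3 to 65.1, and of them Ctsl alone was at 110 to 192 and 14.6 to 27.7. In KO the spermatogonial markers were at 209 to 342 and 16.1 to 319, and the Sertoli markers at 218 to 258 and 42.1 to 166. Their part in the changes was not tested. In WT the total of 31 became 19, 17, 19 and 19 without WT 260 h replicate 2 or 3 or WT 360 h replicate 1 or 2. In those fits 28.2% to 32.1% of genes were called. With WT 260 h replicate 3 as the only early WT library the median member lay at 0.58 and the median gene at 0.28. In KO the total of 24 became 11, 8, 12 and 10 without KO 260 h replicate 1 or KO 360 h replicate 1, 2 or 3. In those KO fits 12.4% to 14.8% of genes were called.

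Of the 31 WT calls, 12 held with any 1 library left out, 6 in each direction. Those higher at 360 h were Ndufa4l2, Uqcrfs1, Atp5s, the assembly factor Ndufaf3 (1.39 ± 0.28, adjusted p = 0.00114), the complex III subunit Uqcrq (1.33 ± 0.28, adjusted p = 0.0015) and the complex I subunit Ndufb10 (1.02 ± 0.27, adjusted p = 0.00767). Uqcrq went from 634, 587 and 598 CPM to 1450, 1870 and 1250. Those lower were Ndufaf4, Ndufa4, the assembly factor Ndufaf6 (−3.58 ± 0.88, adjusted p = 0.00509) and the 3 X-linked members. Ndufaf6 was at 5.91, 7.65 and 21.9 CPM at 260 h and 0, 0.566 and 2.21 at 360 h, and its change was −2.75 without WT 260 h replicate 3 and −5.34 without WT 360 h replicate 3. Among further named WT calls, each lost in at least 1 of these fits, Uqcr10, Ndufv3, Ndufv2 and Ndufaf2 rose by 0.96 to 1.10, and Ndufa10 and Atp5g2 fell by 1.15 and 1.93. Without WT 360 h replicate 3 the change of Ndufa10 was −1.87, and without WT 260 h replicate 1 that of Atp5g2 was −1.17 (adjusted p = 0.0976).

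Of the 24 KO calls, 7 held with any 1 library left out. Cox8c, Ndufb3, Ndufa9 and Ndufaf7 rose, and Cox8a, Ndufaf6 and Ndufa1 fell. Ndufa9, a complex I subunit, was at 206, 190 and 122 CPM at 260 h and 380, 337 and 312 at 360 h (0.99 ± 0.27, adjusted p = 0.0162). Ndufaf6 fell by 3.84 ± 0.89 (adjusted p = 0.00657). Among the KO calls lost in some of these fits, Ndufab1, the mitochondrial acyl carrier protein, fell by 3.05 ± 0.82 (adjusted p = 0.02), Atp5d fell by 1.92 ± 0.53 (adjusted p = 0.0193), and Uqcrc2 and Uqcr10 rose by 1.2 and 1.0. The genotypes share no library in these comparisons. They had 12 called members in common, 38.7% of the WT calls and 50% of the KO calls, beside 40.3% and 68.5% for all genes. Of the 12, 1 had opposite signs, Uqcrfs1, as had 115 of the 3259 genes called in both.

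**Figure D4:**
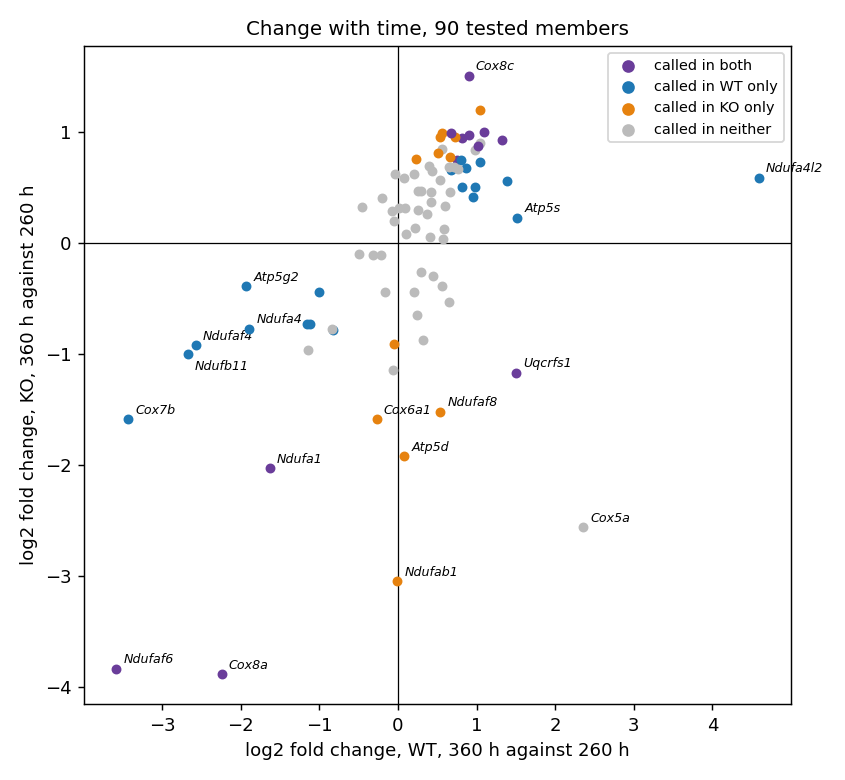
Log2 fold change from 260 h to 360 h in WT (horizontal) and KO (vertical) for the 90 tested members, coloured by where edgeR called them. Ndufa4l2 lies far right at 4.59 in WT and 0.59 in KO, Uqcrfs1 lies in the lower right quadrant, and Cox8a and Ndufaf6 lie at the lower left in both genotypes.

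The 3 X-linked members were Cox7b, Ndufb11 and Ndufa1. From 260 h to 360 h in WT, Cox7b fell by 3.43 ± 0.85 log2 (adjusted p = 0.00652), Ndufb11 by 2.67 ± 0.70 (0.00818) and Ndufa1 by 1.63 ± 0.35 (0.00188). Without WT 260 h replicate 1, Cox7b changed by −2.28 (adjusted p = 0.0315) and Ndufb11 by −2.01 (0.0391). Cox7b was at 97.2, 24.2 and 17 CPM and then at 6.42, 4.34 and 2.12. In KO, Ndufa1 fell by 2.03 ± 0.35 (adjusted p = 0.000876), while Cox7b (−1.59 ± 0.79, adjusted p = 0.163) and Ndufb11 (−1.0 ± 0.66, adjusted p = 0.298) were not called. Cox7b in KO was at 43.3, 53.8 and 25.3 CPM at 260 h and at 1.76, 19 and 19.9 at 360 h, so that KO 360 h replicate 1 was at the WT level and replicates 2 and 3 were not.

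The order of clusters was not the same for the 3 genes. Cox7b was at 75.9 to 192 CPM in the pre-meiotic cluster, 15.8 and 41.5 in cluster 2, 5.97 to 11.3 in cluster 3 and 1.66 to 3.11 in cluster 5. Ndufb11 went from 93.4 to 184 in cluster 1 to 2.69 to 7.15 in cluster 5. Ndufa1 was at 169 to 372 in cluster 1, at 363 and 514 in cluster 2, at 469 to 717 in cluster 3 and at 68.5 to 123 in cluster 5, so its level in cluster 3 was above the pre-meiotic range and in cluster 2 overlapped with it. Autosomal Cox7b2 was at 221 to 909 in cluster 1 and 880 to 1580 in the others. An exon of Ndufb11 overlaps Rbm10 on the opposite strand, at 0.943 to 17.9 CPM.

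In late pachytene cells of KO (cluster 4), Cox7b was at 1.62, 9.37 and 10.7 CPM and Ndufb11 at 2.78, 11.9 and 14.7 in replicates 1, 2 and 3. The 5 spermatogonial markers summed to 14.8, 109 and 132 CPM in the same cells, beside 18.6 to 43.5 in WT, and over all kept cells none of the 5 was at 0 in any library. Cox6b1 was at 99.5, 160 and 155 CPM there, again lowest in replicate 1. Without KO 360 h replicate 1, Cox7b was called between genotypes at 360 h (2.12, adjusted p = 0.0317), against 1.68 ± 0.80 (adjusted p = 0.157) with it. Cluster 4 of these libraries held only cells labelled late pachytene, since the class labels followed the clusters. That label does not measure whether RNA of pre-meiotic cells was among the counts, which was not tested. The part of the markers in this result was not tested.

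**Figure D5:**
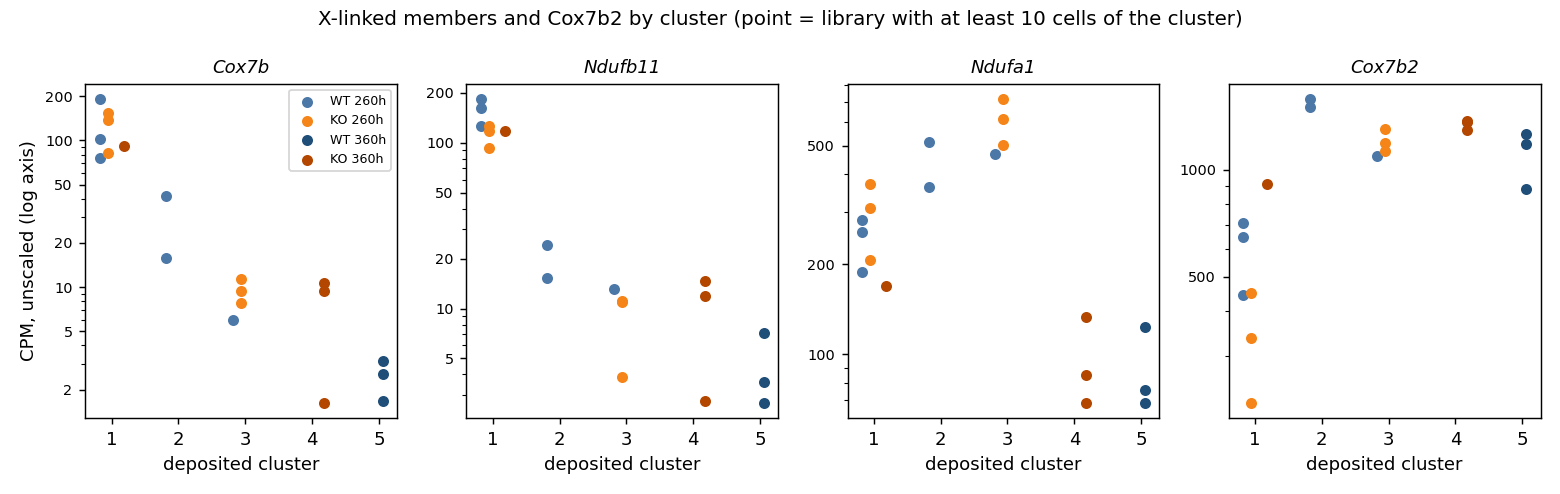
CPM without TMM (log axis) of the X-linked members Cox7b, Ndufb11 and Ndufa1 and of autosomal Cox7b2 in the authors' clusters 1 to 5; each point is a library with at least 10 cells of the cluster, coloured by group. Cox7b falls from at least 75.9 CPM in cluster 1 to at most 3.11 in cluster 5, while Ndufa1 reaches 717 CPM in cluster 3.

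Some members owed their values to 1 library. Cox5a, a subunit of complex IV, was at 21.9, 27.3 and 503 CPM in WT at 360 h and at 26.7, 11.8 and 11.4 in KO. All 94 cells of WT 360 h replicate 3 had Cox5a UMIs, and the cell with the most held 2.16% of them. Its genotype difference at 360 h was −3.47 ± 1.16 and not called (adjusted p = 0.0548). The 10 members high in that library were Cox5a, Cox5b, Cox6a1, Cox8a, Ndufa6, Ndufa10, Ndufab1, Ndufaf8, Ndufs3 and Atp5d. Ndufab1 was at 59.7, 39.4 and 368 CPM and Atp5d at 125, 125 and 442. Of the 3 members high by the same measure in WT 260 h replicate 3 (Cox5a, Ndufab1 and Ndufaf8), all 3 were among these 10. Of 7526 genes, 158 were high in that library and 543 in WT 360 h replicate 3, and their overlap was not counted. Over all genes the 2 libraries departed from their groups alike (correlation 0.343), so this overlap is not read as a trait of the members. None of the 5 members high in WT 260 h replicate 1 was among them. All 5 were called lower over time in WT, where that library is in the earlier group, and 4 of the 5 changed by over 1.5 times in fold when it was left out, all but Ndufa4. The part of the cluster 1 cells of that library in these changes was not tested.

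Genes around the chain moved in both directions. Of 13 genes of the mitochondrial genome, 9 were tested and edgeR called 0 between genotypes at either time (0 and 1 at an unadjusted p under 0.05 at 260 h and 360 h), with a median of 0.46 log2 at 360 h. Within late pachytene class cells, 2 of 8 tested were higher in KO (mt-Nd6, 0.84 ± 0.24, adjusted p = 0.0247, and mt-Nd4, 0.62 ± 0.21, adjusted p = 0.0478), with a median of 0.60, beside 34.9% of genes called there. Of 35 tested assembly factors of other complexes and of complex I that the Nduf symbols do not cover, 3 were higher in KO at 360 h and 4 lower, beside 22.5% of genes. Tmem126b, a complex I assembly factor, was at 8.16, 10.4 and 12.5 CPM in WT and 44.2, 47.5 and 48.2 in KO (2.17 ± 0.31, adjusted p = 0.000152). Coa6, a complex IV assembly factor, was at 52.1, 79.9 and 126 in WT and 35.4, 18.6 and 23.4 in KO (−1.74 ± 0.40, adjusted p = 0.00529). Of 21 genes of the tricarboxylic acid cycle and pyruvate entry, 5 were higher and 2 lower in KO. The succinyl-CoA ligase subunit gene Suclg2 was at 1.92, 3.02 and 4.03 CPM in WT and 21.4, 27 and 24.8 in KO (3.01 ± 0.47, adjusted p = 0.000334), and Pdha2, the testis form of pyruvate dehydrogenase E1 alpha, differed by −0.84 ± 0.27 (adjusted p = 0.0378) and at 260 h by −1.28 ± 0.28 (adjusted p = 0.0268).

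Of 10 cytochrome c and carrier genes, 1 was called between genotypes at 360 h, the phosphate carrier Slc25a3 (−1.05 ± 0.34, adjusted p = 0.0379). Over time in WT, 2 were higher and 5 lower, beside 20.9% and 18.9% of genes. Among the 5 were somatic cytochrome c, Cycs (−2.23 ± 0.48, adjusted p = 0.0019), and the ADP/ATP carriers Slc25a4 (−1.84 ± 0.42, adjusted p = 0.00295) and germ-cell Slc25a31 (−1.03 ± 0.26, adjusted p = 0.00593). The testis cytochrome c Cyct was at 810, 887 and 713 CPM in WT and 947, 809 and 779 in KO at 360 h, which overlapped. Of 20 tested regulators of mitochondrial transcription and biogenesis, 2 were higher in KO (Ssbp1, 1.31 ± 0.35, adjusted p = 0.0134, and Twnk, 1.07 ± 0.33, adjusted p = 0.0268) and 2 lower (Mterf2, −2.13 ± 0.50, adjusted p = 0.00636, and Mterf3, −0.81 ± 0.25, adjusted p = 0.0278). Nrf1, the factor whose letters were searched above, was at 49.2, 42.1 and 70.8 CPM in WT at 260 h and 13.1, 10.1 and 17.3 at 360 h (−2.00 ± 0.30, adjusted p = 0.000148).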

How the data were processed

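Single testis germ cells had been lysed, reverse transcribed with barcoded primers, pooled and sequenced from captured 3′ ends, per the labels' protocols. The deposited values are raw UMI counts per gene and barcode. The submitters' processing notes name STAR 2.5.3a, UMI-tools 1.0.0 and featureCounts 1.6.4 with the mm10 build, and do not name the strand setting. Cell filter, clusters and classes came from the authors' deposited cell table. It does not say how doublets were treated, and no doublet caller was used here.

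Counts of kept cells were summed per library, without spike-ins. Over all 12 libraries, genes passing filterByExpr (20279) were scaled by TMM and tested by edgeR 4.0.16 (R 4.3.3) with its robust quasi-likelihood F-test, 1 coefficient per group, and p-values were adjusted by Benjamini-Hochberg over all genes tested. A gene was called at an adjusted p under 0.05, two-sided. SE is the absolute log2 fold change divided by the root of F. The scripts were tested on simulated data, where large changes were recovered more often than small ones and those of the smallest size were not recovered, so a member that was not called may still differ. Isoform ratios (0.5 added to each count) were compared by exact permutation. Class fits used libraries with at least 10 cells of the class. The early pachytene class was fitted too, but its calls are not read as a result, because cluster 2 had markers of other cell types among its leading genes. The pre-meiotic class fit and the sums over all cells at 260 h hold cells of the same libraries. Alternatives were other scalings, DESeq2 1.42.0, limma-voom 3.58.1, no filter, fewer libraries or cells, a replicate block and leaving out each library.

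The members and lists were chosen with earlier results of these data known. Named genes were the isoform pairs, the called members with the largest change (up to 10 per direction for KO against WT at 360 h and for WT over time, otherwise 5), the 2 most abundant per complex and up to 4 called genes per list with the smallest p. Ndufb3, Ndufs7, Ndufb4, Cox5a, Cox5b, Ndufa6, Ndufaf8, Ndufs3, Ndufb2, Sdha, Uqcrb, Shmt2, Tssk6, Rbm10 and the single markers of other cell types were named after their values were seen.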

Additional observations from a re-analysis of the deposited data

Results flagged for a closer look

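Between 260 h and 360 h the genotype effect differed, by the test of that difference, for 2 members and 3 genes of the related lists (edgeR quasi-likelihood test, adjusted over all genes; 5.08% of genes passed). For Ndufa4l2 the difference was −4.00 (SE 0.69, adjusted p = 0.00362) and for Uqcrfs1 −2.67 (SE 0.53, adjusted p = 0.00868), and both calls held with any of the 12 libraries left out, with −3.31 for Ndufa4l2 without KO 260 h replicate 1. For Coa6 it was −3.24 (SE 0.56, adjusted p = 0.00417): KO libraries were at 48.8, 61.7 and 29 CPM against 15.4, 11.2 and 22.5 in WT at 260 h, above WT, and below WT at 360 h. For Tmem126b it was 1.70 (SE 0.42, adjusted p = 0.0298). For the isocitrate dehydrogenase subunit Idh3a it was 1.46 (SE 0.35, adjusted p = 0.0264), from 59.6, 51.6 and 36.2 CPM in KO against 91.8, 78.6 and 80.1 in WT at 260 h to 137, 102 and 102 against 70, 70.7 and 70 at 360 h.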

How the results depend on the processing

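For KO against WT at 360 h the 7 called members became 12 by DESeq2, 11 by limma-voom, 11 without a filter, 19 with only the 6 libraries and 11 without pre-meiotic cells. In the same order 28.6%, 26.5%, 10.2%, 32.5% and 24.1% of genes were called. The main 7 were all among these calls, except 6 of 7 without a filter. Spike-in scaling gave medians of −0.52 there and 0.88 for WT over time. It gave 14 calls for KO over time (12.7% of genes) and 1 for the difference of effects (2.01% of genes). That difference had 7 calls by DESeq2 (10.7% of genes) and 4 without a filter (3.37% of genes). WT over time had a median member of 0.58 with WT 260 h replicate 3 as the only early library (added after seeing the data). Pre-meiotic cells were also fitted with at least 20 cells per library, which leaves 1 WT library, and those calls are not read. Leaving out 1 library gave 4 to 11 calls for KO against WT at 360 h. It gave 17 to 34 for WT over time and 8 to 19 for KO over time. In those fits 11.8% to 18.8%, 28.2% to 32.6% and 12.4% to 17.4% of genes were called. The calls were 9 to 22 in the late pachytene, 0 to 2 in the pre-meiotic and 0 to 10 in the early pachytene class. Medians were −0.22 to 0.27 at 260 h and −0.18 to 0.26 for the difference. Directions that turned belonged to members not called at 360 h: Atp5g3 (−0.05 with DESeq2 size factors, −0.60 with spike-ins, −0.05 by DESeq2, −0.13 to 0.33 leaving out 1 library), Cox6b1 (−0.01) and Cox7a2l (−0.13) with spike-ins, Cox7b2 (0.07) and Cox4i1 (0.06) with only the 6 libraries, Cox7b2 (0.01) without pre-meiotic cells, and, leaving out 1 library, Cox4i1 (−0.34 to 0.02), Cox6a1 (−0.86 to 0.50) and Cox8a (−0.88 to 0.72). Without pre-meiotic cells the log2 ratio of Cox7b2 to Cox7b at 260 h was 0.53 and that of Cox8c to Cox8a at 360 h 0.19, the latter −1.17 to 0.67 leaving out 1 library. Same-numbered libraries correlated by −0.269 to 0.343. Replicates 1 and 2 correlated negatively with their own number in each comparison. Replicate 3 best matched replicate 3 in KO against WT at 260 h (0.141), WT over time (0.343) and KO over time (0.106). Between genotypes at 360 h it did not (−0.165). With a replicate block the counts were 7 at 360 h, 35 and 30 over time in WT and KO, 17 in the late and 0 in the early pachytene class. The causes were not tested. Groups of 3 libraries limit the precision.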
